A study of Mus musculus with 16 samples.

Results

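The cytosolic ribosomal protein genes encode the protein part of the ribosomes that translate nuclear messages in the cytoplasm. They were taken as the protein-coding genes whose symbol is Rpl or Rps followed by a digit, or *Rpsa*, *Rplp0*, *Rplp1* or *Rplp2*, without the kinase genes named *Rps6k* and without symbols ending in -ps. This gave 86 of the 51912 genes listed in the count files, of which 52 belong to the large subunit, 33 to the small subunit and 1, *Rps19bp1*, is a binding protein that shares the symbol pattern. UMI RNA-seq by ClickSeq was performed on rRNA-depleted total RNA from the micro-dissected cerebral cortex of 15 mice at embryonic day 15.5. The 7 control (ctrl) mice were *Casc5* wild type (5 mice: 2, 6, S1, S3 and T3) or *Casc5* heterozygous (T4 and T5). *Casc5* is another name of *Knl1*, a kinetochore scaffold gene needed for the spindle assembly checkpoint. The 4 cKO mice (5, 7, S2 and F3) were *hGFAP-Cre* *Casc5* conditional knockouts, and the 4 dKO mice (T2, T8, F1 and F7) were *hGFAP-Cre* *Casc5/Trp53* double conditional knockouts. The study asked which transcripts change when *Knl1* is deleted from cortical neural progenitors, and which of those changes need p53. *hGFAP-Cre* recombines in cortical progenitors and their progeny, so each library also held RNA from cells without deletion, such as interneurons, vessels and microglia. In such bulk tissue, fewer cells of a type and less RNA per cell cannot be told apart. Markers of cortical excitatory neurons (1505 to 2181 CPM in sum) and of radial glia (415 to 691 CPM) were present in every mouse. CPM are counts per 1000000 assigned counts after TMM scaling, edgeR's correction for library composition.

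A ribosome carries single copies of nearly all of these proteins, and their genes are transcribed at high and coordinated rates in growing cells. Their messages usually start with a C followed by an unbroken stretch of C and T (U in the RNA), the terminal oligopyrimidine or TOP motif, through which mTOR signalling controls their translation. Ribosomal proteins are also linked to p53. Free RPL5 and RPL11, together with 5S rRNA, bind the p53 ubiquitin ligase MDM2 when ribosome assembly is disturbed.

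The annotated starts of these genes were searched for the pyrimidine stretch. Windows of 30 bases around the RefSeq start (15 before it and 15 from it on, GRCm38.p6) could be matched for 66 of the 86 members. The windows below belong to genes on which the results turn, and the capitals mark the longest run of C and T.
Rps6, chr4:86857353-86857382, minus strand: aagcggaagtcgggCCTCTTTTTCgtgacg
Rpl27a, chr7:109519180-109519209, plus strand: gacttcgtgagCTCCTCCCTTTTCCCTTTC
Rpl4, chr9:64173372-64173401, plus strand: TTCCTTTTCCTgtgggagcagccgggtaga
Rpl19, chr11:98026909-98026938, plus strand: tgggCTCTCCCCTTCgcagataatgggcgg
Rpl12, chr2:32961697-32961726, plus strand: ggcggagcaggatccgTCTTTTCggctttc
Rps27, chr3:90213634-90213663, minus strand: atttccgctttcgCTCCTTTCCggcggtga
Rps21, chr2:180257364-180257393, plus strand: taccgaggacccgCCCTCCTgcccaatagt
Rpl9, chr5:65391417-65391446, minus strand: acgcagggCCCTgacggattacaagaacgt
Rpl5, chr5:107900513-107900542, plus strand: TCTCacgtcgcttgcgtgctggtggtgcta
Rpl11, chr4:136053379-136053408, minus strand: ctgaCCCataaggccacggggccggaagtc
The first 7 windows hold a run of 7 or more pyrimidines, and the last 3 do not. A run of that length was present in 51.5% of the matched members against 21.3% of the windows of 27025 genes, and a run of 10 or more in 30.3% against 6.25%. The letters CTTTCC stood on the gene's strand in 16.7% of members against 1.60% of all windows. CTCTTT was found on the gene's strand in 12.1% of members against 1.28%, and on the other strand in 1.52% against 0.940%; the letter strings can overlap each other and lie within the runs counted above. For genes with several annotated starts, the window with the longest run was kept, for members and all genes alike. Runs anywhere in the window were counted, and those of *Rpl4* and *Rpl19* lie wholly before the annotated start. An annotated start need not be the base where the message begins, and such a match is a description of the sequence.

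A count was present for 81 of the 86 members, and 74 had at least 1 count in every mouse. A mean of 5 CPM or more over the mice was reached by 77 members, and counts given out of 77 refer to these. The 5 members without a count were *Rpl10l* and *Rpl39l*, copies known from testis, *Rpl3l*, a copy known from muscle, *Rps27rt*, and *Rpl13*. The last encodes a core large subunit protein. *Rpl13* (100% of its length) lies inside the annotated gene *Gm20388* on the same strand. Among protein-coding genes placed inside another gene on the same strand, 416 of 419 (99.3%) had no count, against 27.5% of those without any overlap. *Rpl24* and *Rpl36al* are covered by such a gene over 98.7% and 92.4% of their length and had 1 and 2 counts in all. *Rpl13a*, which lay under same-strand features over 88.6% of its length, had 290 counts over all mice. Counts of these 4 genes may thus miss reads that both annotations share, and no fold change is given for the first 3.

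The most counts in the 7 ctrl mice fell on *Rpl4*, a large subunit protein of the exit tunnel wall, at 146 ± 15.9 CPM (SD, n = 7). Other members with many counts were *Rplp1*, an acidic stalk protein (125 ± 19.7), *Rpsa*, the 40S protein also known as the laminin receptor (105 ± 16.6), *Rpl12* at the stalk base (105 ± 11.5), *Rpl5* (87.6 ± 12.9) and *Rplp0*, the stalk anchor (79.1 ± 23.6). These values are not corrected for length, so they do not rank the messages. Per kilobase of exon, *Rplp1* led with 250.6 ± 39.5 CPM in ctrl (SD, n = 7), before *Rpl4* with 72.6 ± 7.91 and *Rpl32* with 63.1 ± 15.4. *Rpl4* and *Rpl32* differed by less than the spread between mice. Among the 74 members with a count in every mouse, the lowest on the same scale were *Rpl35a* with 2.28, *Rps19* with 2.90 and *Rps25* with 3.60. On CPM the median member stood at 30.9, close to the 33.8 of the 10371 protein-coding genes at 5 CPM or more. Per kilobase of exon it stood at 15.3 CPM against 7.04, above 77.4% of those genes. Per kilobase of genomic span it stood at 8.68 CPM against 1.15, above 96.8% of them. Members are short genes, with a median span of 3368 bases against 32658. The counting feature of the deposited tables is not given in the sources used here, so both scales are shown.

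Per kilobase of exon, copies with a changed symbol had lower levels than their parent genes. In ctrl, *Rps27l*, a small subunit copy known as a p53 target, had 4.10 CPM per kilobase against 48.2 for *Rps27*. *Rpl22l1*, a copy of the RNA-binding protein gene *Rpl22*, had 0.779 against 17.1. *Rps27l* had median levels of 3.80 CPM in ctrl, 3.27 in cKO and 2.09 in dKO, with log2 fold changes of 0.18 ± 0.44 in cKO and -0.21 ± 0.57 in dKO, each with an FDR of 1 by edgeR. *Rps27* had median levels of 43.7, 51.8 and 62.4 CPM. *Rpl22l1* had 1.27, 2.38 and 1.99 CPM, and *Rpl22* 49.0, 56.6 and 65.6 CPM. In all, 59 members had at least 1 pseudogene of their name in the annotation, up to 23 for *Rps12*, so reads of near-identical copies may be dropped or moved for them.

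The summed members took a small share of all counts in each group. In ctrl the share was 0.264% in mouse 2, 0.281% in 6, 0.310% in S1, 0.303% in S3, 0.252% in T3, 0.289% in T4 and 0.260% in T5. In cKO it was 0.250% in mouse 5, 0.272% in 7, 0.286% in S2 and 0.283% in F3. In dKO the share was 0.272% in T2, 0.276% in T8, 0.340% in F1 and 0.318% in F7. The cKO values lay within or just below the ctrl range, and the 2 highest dKO mice, F1 and F7, stood above all other mice. The means were 0.280% ± 0.022 in ctrl (SD, n = 7), 0.273% ± 0.016 in cKO (n = 4) and 0.302% ± 0.033 in dKO (n = 4). Wilson 95% intervals of these shares, which cover counting error only, ran from 0.237% to 0.268% in T3 and from 0.282% to 0.289% in S2. As large over small subunit CPM, F3 had a ratio of 1.98, whereas the other cKO mice had 1.58 to 1.59, the ctrl mice 1.61 to 1.86 and the dKO mice 1.67 to 1.88.

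**Figure D1:**
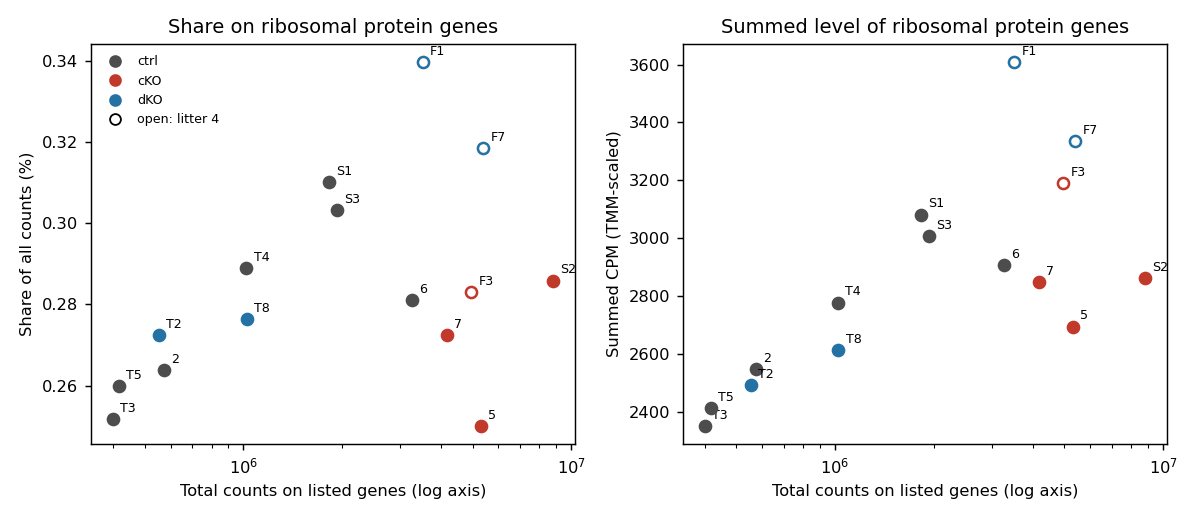
Share of all counts on the ribosomal protein genes (left, percent) and their summed CPM after TMM scaling (right) against the total gene counts of each mouse on a log axis, with one point per mouse, coloured by group, and open points for litter 4. Summed CPM ranged from 2351 in T3 to 3608 in F1, and the open points of F1 and F7 lie above the other dKO mice.

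In cKO compared to ctrl, 0 of the 80 members with a count in these mice were called by the edgeR likelihood ratio test (FDR below 0.05 over all listed genes; 83 of 51912 genes, 0.160%, were called). At an unadjusted p below 0.05 there was 1 member, which was lower, or 1.25% against 9.47% of all genes with a count and 5.51% in that direction. The quasi-likelihood F test and DESeq2 likewise called 0 members, beside 352 and 137 of all genes. At an unadjusted p below 0.05 they gave 4 and 2 members, beside 2569 and 1393 of all genes. The median log2 fold change over the members was 0.04, near the 0.01 of all genes with a count, and 51 of 80 lay above 0. The fits were precise enough that 76 of the 77 members at 5 CPM or more had a 95% interval within a 2-fold change, and 54 within 1.5-fold. *Knl1* and *Trp53* were read as whole-gene counts, in which the deleted exons cannot be told apart from the rest. *Knl1* had 62.8 ± 13.5 CPM in ctrl, 58.2 ± 14.8 in cKO and 49.8 ± 11.6 in dKO, and *Trp53* had 30.5 ± 10.6, 28.3 ± 4.26 and 25.1 ± 5.26.

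The member with p below 0.05 was *Rpl5*, of the 5S rRNA particle that binds MDM2. It had 67.8 CPM in mouse 5, 76.0 in 7, 77.5 in S2 and 58.4 in F3, against 72.4, 85.8 and 107 CPM as the lowest, median and highest of the 7 ctrl mice. The groups overlapped, the log2 fold change was -0.31 ± 0.13 (SE), and its FDR by edgeR was 0.827 (two-sided exact permutation p = 0.0455 over 11 mice, unadjusted). Without F3, its lowest mouse, the log2 fold change was -0.24. In dKO it was -0.19 ± 0.15, with an FDR of 1.

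Other members that act on MDM2 and p53 were not called either. *Rpl11*, the partner of *Rpl5* in the same particle, had medians of 18.7 CPM in ctrl, 21.9 in cKO and 24.4 in dKO. *Rpl23*, another large subunit protein, had 19.0, 19.0 and 19.4. *Rpl26*, which also binds p53 mRNA, had 42.0, 48.7 and 47.0. Their log2 fold changes in cKO were 0.12 ± 0.21, -0.07 ± 0.20 and 0.25 ± 0.18, and the mice of the groups overlapped for each. In the same edgeR fit, the p53 targets *Cdkn1a*, *Ccng1* and *Eda2r* were called higher in cKO, while *Mdm2*, *Mdm4* and *Trp53* were not. The cell types in the tissue differed between groups as well: intermediate progenitor markers summed to 182 ± 21.8 CPM in ctrl, 105 ± 33.0 in cKO and 132 ± 30.4 in dKO, and interneuron markers to 592 ± 126, 793 ± 69.6 and 615 ± 112. Their part in the member values was not tested.

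The genes of the stalk, which recruits translation factors, were not called in cKO. *Rplp1* had a log2 fold change of -0.27 ± 0.15, *Rplp0* of -0.20 ± 0.16 and *Rplp2* of -0.08 ± 0.16. Members of the subunit bodies were not called either. *Rps6*, the substrate of S6 kinase, gave 0.03 ± 0.16. *Rps4x* gave -0.03 ± 0.21 and *Rps19*, a gene of Diamond-Blackfan anaemia, -0.10 ± 0.23. *Rpl10*, which matures the large subunit, gave 0.01 ± 0.15, *Rpl3* at the peptidyl transferase centre -0.01 ± 0.15, and *Rps27a*, made as a ubiquitin fusion, -0.03 ± 0.22. The short proteins *Rpl39* and *Rpl41* gave -0.10 ± 0.32 and -0.08 ± 0.19. Among higher values, *Rps25* gave 0.40 ± 0.22 (two-sided exact permutation p = 0.0455), and *Rpl21* gave 0.47 ± 0.26.

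In dKO compared to ctrl, 0 of 80 members were called by the same edgeR test (26 of 51912 genes, 0.0501%, were called). At an unadjusted p below 0.05 there were 10 members, 9 higher and 1 lower, or 12.5% against 6.72% of all genes with a count (4.50% higher and 2.22% lower). By the quasi-likelihood F test 2 members were called, among them *Rpl21*, beside 113 of all genes. DESeq2 called 0 members, beside 9 of all genes, and gave 6 members at an unadjusted p below 0.05. *Rpl21* had 41.4 CPM in T2, 45.3 in T8, 113 in F1 and 105 in F7, against 20.2, 48.4 and 62.5 CPM as the lowest, median and highest ctrl values. Both litter 4 mice thus stood above all ctrl mice, and both litter 3 mice stood within the ctrl range. The members higher at that level included *Rpl21* (log2 fold change 0.70 ± 0.24), *Rpl29* (0.59 ± 0.22), *Rps21* (0.57 ± 0.28), *Rpl22* (0.53 ± 0.19) and *Rpsa* (0.29 ± 0.14). *Rpl9* was the lower one, with 24.9 CPM in T2, 27.7 in T8, 17.5 in F1 and 20.2 in F7 against 25.5, 33.6 and 35.6 in ctrl. Its log2 fold change was -0.53 ± 0.20 with an FDR of 1 (two-sided exact permutation p = 0.0121, unadjusted). The median over members was 0.15 against 0.04 over all genes. The dKO values came from 2 mice of litter 3 and 2 of litter 4. Without F1 and F7, both of litter 4, the median turned to -0.17 (-0.10 over all genes). At an unadjusted p below 0.05, 1 member was higher and 3 lower, beside 1022 of all genes. With litter as a covariate, which leaves T2 and T8 set against T3, T4 and T5 of litter 3, the median was 0.03 (0 over all genes). There 0 members were called and 1 had an unadjusted p below 0.05, beside 4 and 1057 of all genes. With log10 total as a covariate the median was 0.02 (0.02 over all genes) and 0 members were called, beside 4 of all genes. At that p level, 1 member was higher and 3 lower, beside 1325 of all genes. All dKO mice were of batch 3. With batch as a covariate the median rose to 0.37 (0.12 over all genes) and 0 members were called, beside 17 of all genes. There 18 members were higher and 1 lower at that p level, beside 1614 of all genes. In batch 3 alone the median was 0.36 (0.14 over all genes). There 17 members were higher and 1 lower at that level, beside 1587 of all genes.

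In cKO compared to dKO, 0 of 81 members were called (27 of 51912 genes, 0.0520%). The quasi-likelihood F test and DESeq2 called 0 members, beside 184 and 7 of all genes. They gave 9 and 3 members at an unadjusted p below 0.05, beside 2267 and 691 of all genes. The edgeR test gave 3 at that level, all lower in cKO, or 3.70% against 8.22% of all genes with a count (6.45% lower). They were *Rpl10a* (-0.54 ± 0.22), *Rps2*, an entry-tunnel protein (-0.37 ± 0.19), and *Rplp0* (-0.31 ± 0.16). The median was -0.09 (-0.01 over all genes), and it was 0.23 without F1 and F7 (0.19 over all genes). In each of the 3 comparisons, 0 of the 77 members at 5 CPM or more had groups that did not overlap, against 0.910%, 0.593% and 3.09% of all genes at 5 to 150 CPM. The 2 comparisons with ctrl share those 7 mice, and those with dKO or cKO share 4 each.

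**Figure D2:**
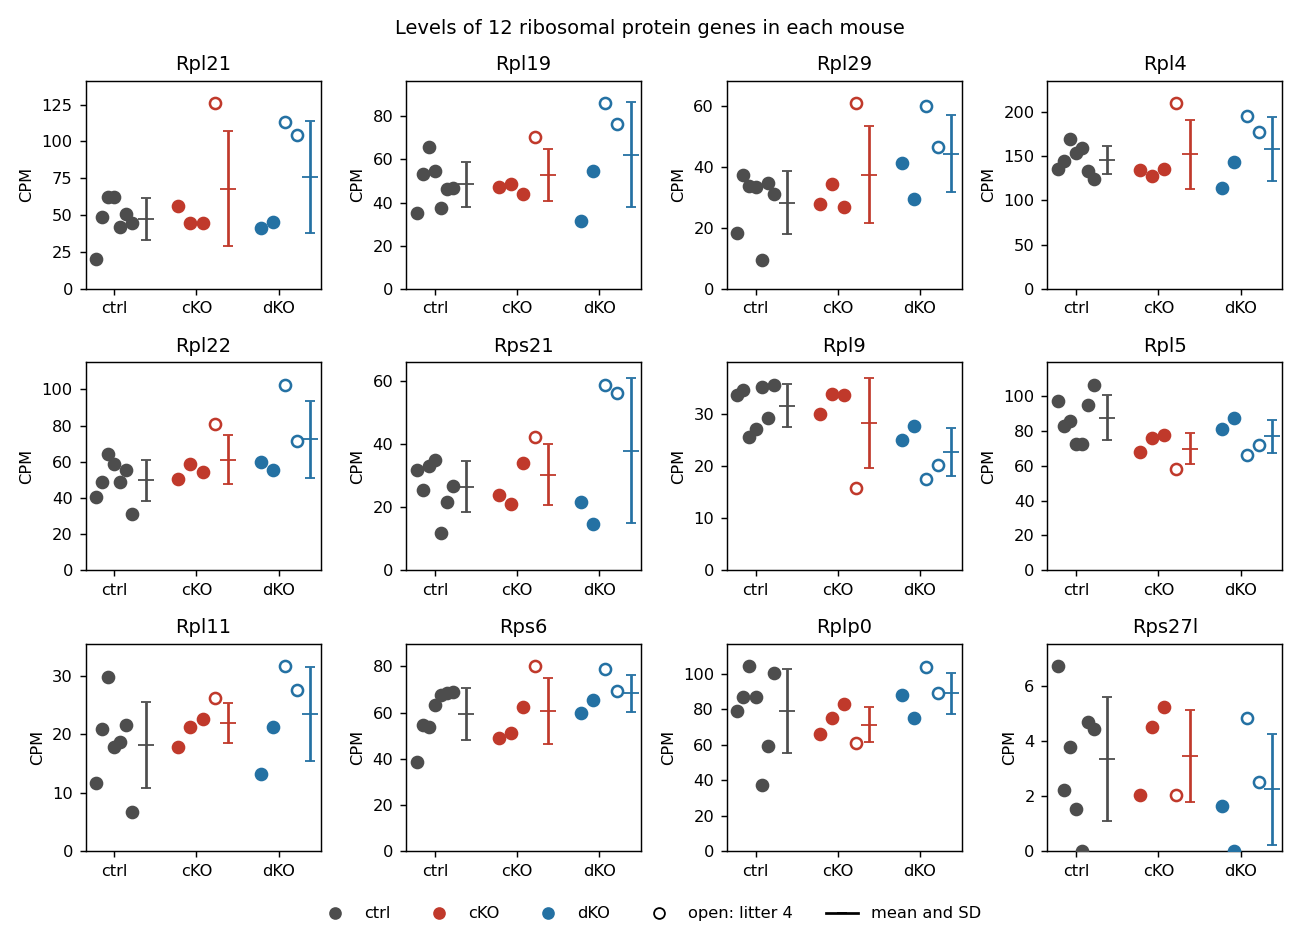
CPM of 12 members (panels) by group (ctrl, cKO, dKO), with one point per mouse, bars for the mean and SD, and open points for litter 4. For *Rpl21* the open points sit between 105 and 126 CPM, and every other mouse lies at 62.5 CPM or lower.

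Total gene counts ran from 399832 in T3 to 8800987 in S2, and member counts from 1007 to 25161. Member levels were compared with this depth. Over 15 mice, Pearson's r between the log10 total and the summed member CPM was 0.702 and Spearman's rho 0.714. Leaving out T3 and T5, whose totals lay farthest from the median, gave an r of 0.565. For the plain share of counts r was 0.417 and rho 0.421, and without those mice 0.208. Within batch 3 (8 mice) r was 0.935 for the scaled sum and 0.794 for the share, and within the 7 ctrl mice 0.919 and 0.789. In batch 3 the litter 4 mice (3519529 to 5396803 counts) were all deeper than those of litter 3 (399832 to 1023405). Depth and litter therefore cannot be told apart in that batch. Without the litter 4 mice (12 mice left) r was 0.711 for the scaled sum and 0.284 for the share. Within batch 1 (6 mice) r was 0.462 and 0.036 and, without mice 2 and S2, -0.950 and -0.978, so the relation did not hold there. Batch 2 held 1 mouse. The points share the same libraries, and library depth also differed between groups, being higher in cKO (4178461 to 8800987) than in all ctrl mice (399832 to 3266227).

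Gene by gene, the slope of the log2 level on log10 total was fitted over all 15 mice with group in the model. In this edgeR likelihood ratio fit 0 of 81 members were called (91 of 51912 genes, 0.175%). A slope with an unadjusted p below 0.05 was found for 32 of 81 members (39.5%), all of them positive, against 11.1% of all genes with a count (4.89% positive) and 9.14% of the genes at 5 to 150 CPM. The quasi-likelihood F test called 1, *Rpl27a*, beside 80 of all genes. After thinning every library to the lowest total, 18 members had an unadjusted p below 0.05, beside 1823 of all genes. The median slope in the thinned counts was 0.41 (-0.07 over all genes). In the main fit the median slope was 0.44 per 10-fold of total counts, against 0.08 over all genes and 0.10 at 5 to 150 CPM, and 70 of 81 were positive. Within batch 3 alone, where depth and litter cannot be told apart, the median slope was 0.63 (0.15 over all genes). There 28 members had an unadjusted p below 0.05 and 3 were called, beside 3034 and 135 of all genes. In the 7 mice of batches 1 and 2 the median slope was 0.18 (0.06 over all genes). There 2 members were at that level and 0 called, beside 1688 and 3 of all genes. Without the litter 4 mice it was 0.47 (0.06 over all genes), with 15 members at that level and 0 called, beside 2395 and 23 of all genes. *Rpl27a* had the steepest slope in the fit over all mice, 1.37 ± 0.35 with an FDR of 0.0549. Its lowest ctrl mouse, 2, had 3.36 CPM from 2 counts, the ctrl median was 24.5, and the highest ctrl value was 36.4 in S1. *Rpl23a* followed with 1.27 ± 0.50 and *Rps21* with 1.23 ± 0.36. In the shallow mice T3 and T5, *Rpl23a* had 2 counts each. Over the main and alternative fits the slope ran from 1.10 to 1.86 for *Rpl27a*, from -0.60 to 2.11 for *Rpl23a* and from 0.30 to 1.84 for *Rps21*. At the other end were *Rps19* with -0.55 ± 0.34, *Rplp1* with -0.28 ± 0.19 and *Rpl9* with -0.26 ± 0.31, none of them with p below 0.05. The median slope was 0.48 in the large and 0.44 in the small subunit.

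**Figure D3:**
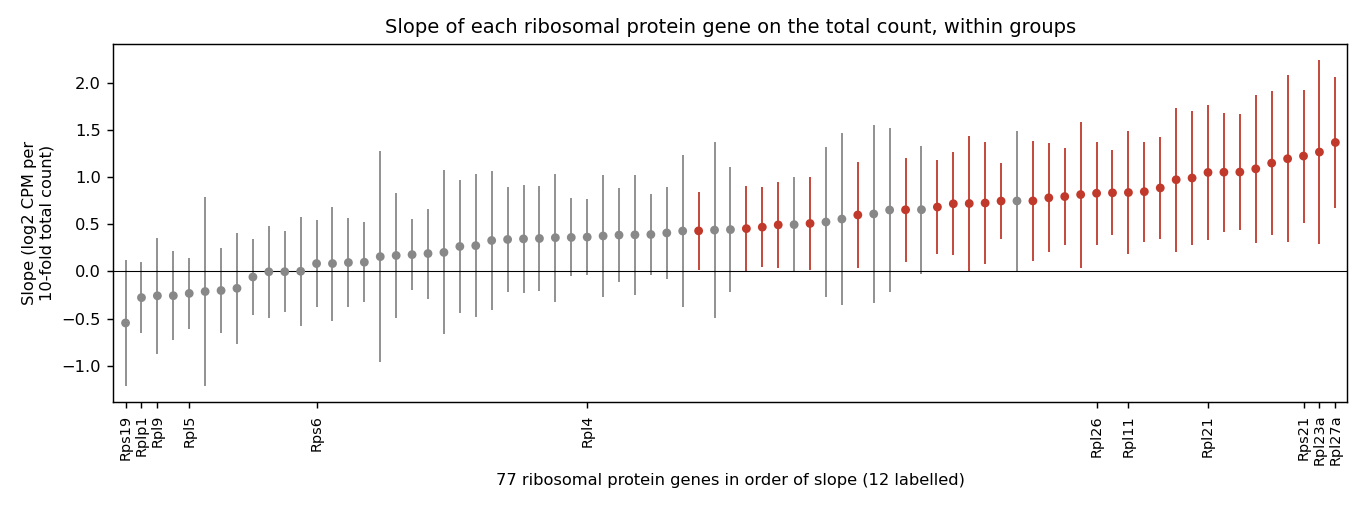
Slope of the log2 level on log10 total gene counts for each of the 77 members at 5 CPM or more, sorted, with 95% intervals and 12 of them labelled; red marks an unadjusted p below 0.05. The slopes run from -0.55 (*Rps19*) to 1.37 (*Rpl27a*), and 66 of 77 lie above 0.

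Median slopes of other gene lists are given for comparison. Mitochondrial ribosomal protein genes, which build the separate ribosome of that organelle, had a median slope of 0.16, with 3 of 75 at p below 0.05. Other translation genes with a TOP start, such as *Eef1a1*, had 0.29 (6 of 16). Polymerase I and ribosome assembly genes had 0.23 (6 of 28), and nuclear respiratory chain subunits 0.08 (4 of 53). The rRNA genes, at 0.46 (4 of 29), had a median slope as high as that of the members. In contrast, the pseudogenes named after members had a median slope of -0.98, and 20 of 125 were lower at an unadjusted p below 0.05, 3 of them called. Their summed level ran from 18.9 CPM in mouse 5 to 131 CPM in T3. The 23 fitted members without a pseudogene of their name had a median slope of 0.65 (9 at p below 0.05). Meninges markers had a median slope of -3.75 over 4 genes. The part of these values in the member slopes was not tested. Windows with a C and T run of 7 or more had a median slope of 0.46 (32 members) and those with a shorter run 0.44 (29 members).

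**Figure D4:**
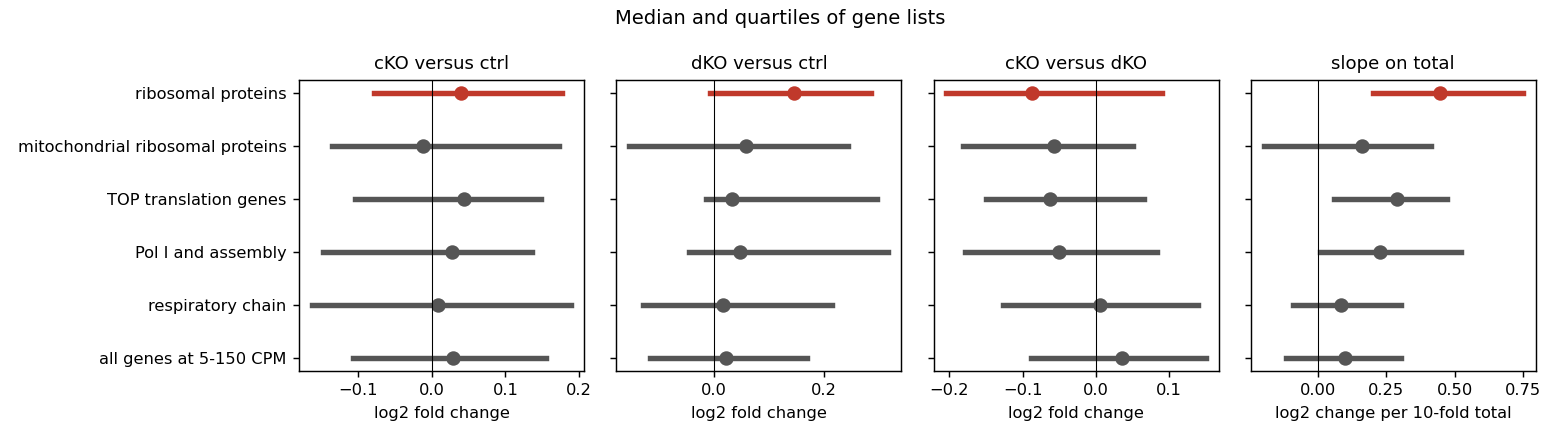
Median log2 fold change with quartiles for the members, 4 comparison lists and all genes at 5 to 150 CPM in the 3 group comparisons, and the median slope on log10 total. The medians of the group comparisons lie near 0 in each list, and the median slope is 0.44 for the members, beside 0.16 for mitochondrial ribosomal protein genes and 0.10 for all genes at 5 to 150 CPM.

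The nearest patterns outside the group were found by the correlation of log2 CPM with the summed member level over 15 mice, among 9111 genes at 10 CPM or more. They were *Hnrnpa1* (r = 0.931), *Dynll1* (0.926), *Eef1a1* (0.925), *Stmn1* (0.918) and *Ybx1* (0.915). Between pairs of the 77 members the median r was 0.22, with a range of -0.46 to 0.73 between the 5th and 95th percentile. These points share libraries and depth, and are given as a description.

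One litter stood apart in the members. Litter 4 held the mice F1, F3 and F7, all of batch 3, with no ctrl mouse, and it was compared with the other cKO and dKO mice after its values had been seen, by an edgeR fit over all 15 mice with a litter 4 term and a group term. It called 9 of 81 members (11.1%), 8 higher and 1 lower, against 130 of 51912 genes (0.250%, or 0.214% higher and 0.0366% lower), 0.475% of genes with a count and 1.02% of genes at 5 to 150 CPM. At an unadjusted p below 0.05 there were 31 members (38.3%) against 8.90% of genes with a count and 14.0% at 5 to 150 CPM. Since litter and comparison were picked from these data, the values are a description of these 3 mice.

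*Rpl21*, a large subunit protein, had 126 CPM in F3, 113 in F1 and 105 in F7, and 20.2 to 62.5 CPM in all 12 other mice. The litter 4 mice were 2.54-fold higher (95% interval 1.99 to 3.23), with an FDR of 1.05e-11 by edgeR. *Rps21*, a small subunit protein, had 42.3, 58.9 and 56.3 CPM in the same order, against 11.7 to 34.8 (2.19-fold, 95% interval 1.59 to 3.03). *Rpl4* had 210, 196 and 178 CPM, against 114 to 170 (log2 difference 0.59 ± 0.13). *Rpl29* had 60.9, 60.1 and 46.6 CPM, against 9.34 to 41.4 (0.86 ± 0.20), and *Rpl19* had 70.5, 86.0 and 76.6 CPM, against 31.5 to 65.7 (0.71 ± 0.17). For each of these the litter 4 mice did not overlap with the other 12. *Rpl17* and *Rpl12* were also called (0.77 ± 0.17 and 0.57 ± 0.14), and their litter 4 values overlapped with other mice. *Rpl9*, a large subunit protein near the stalk, was the lower one, with 15.7, 17.5 and 20.2 CPM against 24.9 to 35.6, a log2 difference of -0.79 ± 0.20 (FDR 0.0442). Other members lower at an unadjusted p below 0.05 included *Rpl13a*, *Rps27a* and *Rpl5*.

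In all, 10 of 77 members lay above all 12 other mice in litter 4 (13.0%, against 1.64% of genes at 5 to 150 CPM) and 1 lay below (1.30%, against 0.529%). Beside those named above, they included *Rps9*, *Rpl22*, *Rps23* and *Rps6*. The same litter was then read within each genotype, as a description, since F3 is a single mouse and the litter was picked from these values. Of the 77 members, 43 were higher in F3 than in the 3 other cKO mice, with a median log2 difference of 0.09 (-0.05 over all genes). In F1 and F7, 62 were higher than in T2 and T8, with a median of 0.515 (0.18 over all genes). Higher in both were 39 members. The matching counts over all genes were not taken, so no shared pattern is read from that number. In the cKO mice, F3 was of batch 3 and the 3 others of batch 1, so litter and batch cannot be told apart there. In the dKO mice, litter 4 was also the deeper litter, so litter and depth cannot be told apart among them. With log10 total added to the model over all mice, 5 members were called, among them *Rpl4*, *Rpl17*, *Rpl21* and *Rpl9*, beside 96 of all genes. Without F3 only *Rpl21* and *Rps21* were called, beside 34 of all genes.

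**Figure D5:**
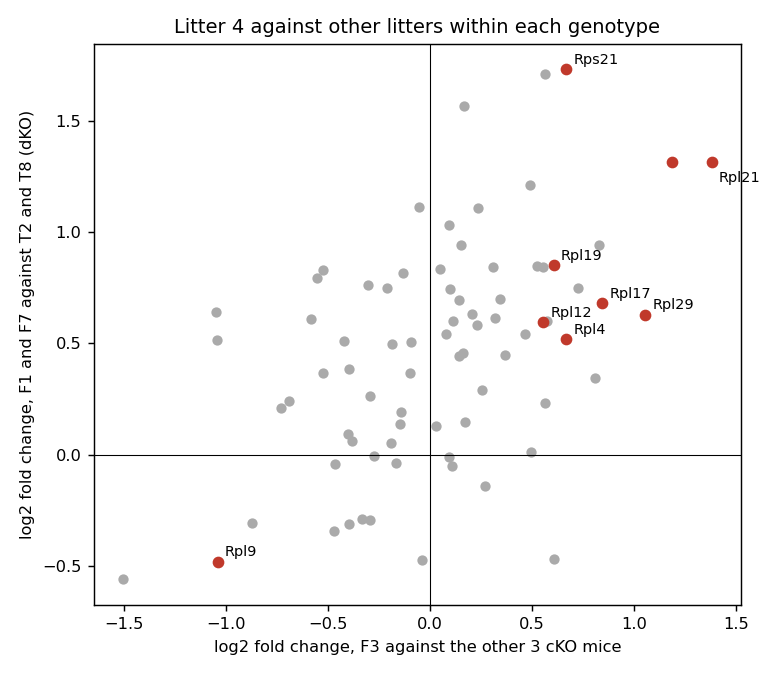
Log2 difference of F3 from the other cKO mice (x) against that of F1 and F7 from T2 and T8 (y) for the 77 members at 5 CPM or more; red marks the 9 members called over all mice, not all of them labelled. *Rpl21* lies at 1.38 and 1.32, and *Rpl9* at -1.04 and -0.48. F3 is of batch 3 and the other cKO mice are of batch 1.

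Litter 4 differed in other readouts as well, and their part in these values was not tested. The rRNA genes had 42048 CPM in F3, 30329 in F1 and 26969 in F7, against 4613 to 25493 in the other mice. In the same edgeR fit 5 of 29 rRNA genes were called higher (median 1.57), as were 6 of 20 mitochondrially encoded genes (median 0.61), with *mt-Rnr1* and *mt-Rnr2* in both lists, and 1 of 8 nuclear long RNAs, *Malat1*. Reads outside features, per 100 assigned counts, were 12.9 in F1 and 15.8 in F7, above the 6.48 to 10.8 of the other 12 mice, while F3 with 9.74 lay within that range. Among the comparison lists, 0 of 75 mitochondrial ribosomal protein genes were called by edgeR in litter 4 (9 at an unadjusted p below 0.05, median 0.04), 3 of 16 TOP translation genes (*Eef1a1*, *Eef1b2* and *Hnrnpa1*), and 2 of 53 respiratory chain subunits. For the called members, pseudogenes of the same name numbered 15 for *Rpl21* and 9 for *Rpl9*, and 0 for *Rpl4* and *Rps21*.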

How the data were processed

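The authors deposited whole-number UMI counts per gene for 16 libraries of 15 mice. Their processing notes name bcl2fastq 2.17, cutadapt 1.13, STAR 2.5.2a, UMI-tools 0.5.3, HTSeq 0.6.1p1, edgeR 3.18.1 and the mouse build mm10, and their methods describe deduplication by UMI and htseq-count in intersection-nonempty mode. The annotation release, the counted feature and the strand setting are not given in the sources used here. The libraries S2 and S2b of a single mouse differed by less than the sampling noise over the members (chi-square per degree of freedom 0.992) and were summed, so n counts mice, which are separate animals. Totals ran from 399832 to 8800987 counts, and a floor of 3 counts corresponds to 7.50 counts per 1000000 in T3 and 0.341 in S2. Reads outside features, ambiguous reads and reads aligned to several places were kept out of the library sizes (6.48% to 15.8%, 2.30% to 2.63% and 18.2% to 47.9% of assigned counts).

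Gene IDs were matched to GENCODE vM21 symbols and coordinates on GRCm38, with 279 of 51912 unmatched, and start windows to RefSeq on GRCm38.p6. Groups were fitted in edgeR 4.0.16 (R 4.3.3) with glmFit and glmLRT, TMM, no filter and no covariate, on the mice of the 2 groups compared. The test and its adjustment are those of the study, and the other settings were chosen here. Benjamini-Hochberg FDR ran over all 51912 genes, with calls below 0.05. Log2 fold changes are given with standard errors, and single levels were also tested by a two-sided exact permutation test over mice, for which the smallest p is 0.00303 for ctrl comparisons and 0.0286 for cKO against dKO. Alternatives were the quasi-likelihood F test, DESeq2 1.42.0, RLE or no scaling, a filter on low counts, covariates for batch, litter and depth, and leaving out mice. The fits were tested on simulated counts. Members, comparison lists and named genes were chosen with earlier results of these data known. Genes were named by their role, by the smallest p in each direction, by the highest and lowest level per kilobase, by the steepest slopes, and as copies of other members. Genes named for litter 4 were chosen after their values were seen. A few single members are not reported here by name. From the deposited count files, only the column of counts was used, for the genes and for the summary rows of unassigned reads.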

Additional observations from a re-analysis of the deposited data

Results flagged for a closer look

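Of 129 tests of the most extreme mouse within a group, 5 passed Dixon's 95% criterion, which chance alone meets in about 1 in 20 groups. The cKO mouse F3, the single cKO mouse of batch 3, stood apart in 4 of them. Its ratio of large over small subunit CPM was 1.98, against 1.58 to 1.59 in the other cKO mice. It also had the highest CPM of *Rpl21* (126, against 44.7 to 56.5), *Rpl4* (210, against 128 to 136) and *Rps9* (49.8, against 33.3 to 35.4). The lowest dKO value of *Rpl3* was 43.1 CPM in T2, against 58.2 to 60.7.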

How the results depend on the processing

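In cKO against ctrl, the median log2 fold change was -0.19 with log10 total as a covariate (0.002 over all genes). In batch 3 it was 0.31 (0.05 over all genes). F3 is the single cKO mouse of that batch, and the spread was taken from the ctrl mice T3, T4 and T5. No call count is therefore given for that fit. In dKO against ctrl, the quasi-likelihood F test called 2 members, beside 113 of all genes. The median was 0.37 with batch as a covariate (0.12 over all genes) and -0.17 without both litter 4 mice (-0.10 over all genes). Leaving those mice out also moved the cKO against dKO median to 0.23 (0.19 over all genes). With log10 total the dKO against ctrl median was 0.02 (0.02 over all genes). That of cKO against dKO was -0.25 (-0.001 over all genes). The slope call count was 1 by the quasi-likelihood F test, 3 with batch as a covariate or in batch 3 alone, and 0 in batches 1 and 2. These fits called 80, 79, 135 and 3 of all genes in that order. In batches 1 and 2, 2 members had an unadjusted p below 0.05 against 32 over all mice (1688 and 3046 of all genes). For litter 4 the call count was 5 with log10 total, 4 without scaling and 4 within dKO, beside 96, 138 and 84 of all genes. Within cKO, F3 alone makes up the litter, so no count is given. With protein-coding counts as the total, the mean share was 0.296% in ctrl, 0.291% in cKO and 0.325% in dKO. The members without a pseudogene of their name held 0.0662%, 0.0650% and 0.0719% in ctrl, cKO and dKO.

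Leaving out each mouse in turn gave 0 to 1 called in dKO against ctrl (1 without T8), 0 to 3 for the slope (3 without mouse 6 or S2), and 2 to 10 for litter 4 (2 without F3), and 0 in the other 2 comparisons. These fits without T8, 6, S2 and F3 called 59, 63, 188 and 34 of all genes. Of 1456 values of named genes under the alternatives, 1309 kept their sign and their side of the threshold, 10 passed it newly and 35 lost it. The sign changed in 102, for 34 of 61 gene and comparison pairs, none of them called in either fit and 0 with an unadjusted p below 0.05 under the alternative; no called value changed sign. The causes were not tested. The labels give the groups no shared replicate numbers, but litters 1 to 4 each hold mice of 2 groups. With litter as a covariate, a block that leaves cKO against ctrl to litters 1 and 2, dKO against ctrl to litter 3 and cKO against dKO to litter 4, 0 members were called and the medians were -0.06, 0.03 and -0.22. At the depth of T3 and T5, a member at 5 CPM has fewer than 3 counts.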
